A study of Mus musculus with 46 samples.

Results

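The genes described here are the amino acid transporters of mouse bone marrow-derived macrophages (BMDMs), taken as every gene whose symbol is Slc1a, Slc3a, Slc7a, Slc36a, Slc38a or Slc43a followed by a number, Slc7a2 and Slc7a11 included. They numbered 42 of the 25624 genes listed in the expression tables. Of the 42, 24 reached 1 TPM, a length-normalised measure of transcript abundance, in at least 1 library and 18 did not. The 4 experiments compared BMDMs in which the chromatin remodeller SWI/SNF had been perturbed with their controls, before and after stimulation with lipopolysaccharide (LPS) or its lipid A moiety, both of which act through Toll-like receptor 4. Polyadenylated RNA was sequenced from 2 samples in each of 23 groups, and 45 libraries were used.

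In experiment 1, BMDMs treated with ACBI1, with BRM014 or with BRDK98 and given lipid A for 4 hr were set against wild-type cells given lipid A for 4 hr, beside wild-type cells at 0 and 1 hr of lipid A. Experiment 4 had the same 3 compounds with lipid A for 20 and 60 min, each set against wild-type cells at the same time, and wild-type cells at 0 min. Experiment 2 set Arid1a-/- cells given LPS for 1 or 4 hr against Arid1a f/f cells at the same times, with Arid1a f/f cells at 0 hr. In experiment 3, Pbrm1-/- cells at 4 hr of lipid A were compared with Pbrm1 f/f cells at 4 hr, with Pbrm1 f/f cells at 0 hr. ACBI1 causes the SMARCA2, SMARCA4 and PBRM1 proteins to be degraded. BRM014 blocks the ATPases SMARCA2 and SMARCA4. For BRDK98 only the code name is given. Perturbed cells were measured with stimulus only, so an effect of a compound or a knockout is an effect on stimulated cells. Compound dose, time of compound addition, animal age and the way the floxed genes were deleted were not given in the sources used here.

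Amino acid carriers work in families that differ in what they move and what drives them. Slc3a2 (CD98) is a heavy chain that carries several Slc7a light chains to the plasma membrane, and each light chain exchanges its own set of amino acids. Slc7a1 and Slc7a2 move arginine, lysine and ornithine without a heavy chain. Slc1a5 and the Slc38a carriers bring in glutamine and other small neutral amino acids with sodium, while Slc36a1, Slc38a7 and Slc38a9 sit on the lysosome. In activated macrophages, arginine entering through Slc7a2 feeds the inducible nitric oxide synthase Nos2, and cystine entering through Slc7a11 feeds glutathione synthesis.

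The RefSeq promoter table (GRCm38.p6, 250 bases before to 50 after each gene's start) held 31 of the 42 genes, in 42 windows. The 2 windows printed here belong to Slc7a11 and Slc38a2, carriers whose levels differed between the compounds. Capitals mark matches to 3 letter patterns searched on both strands, namely TGATGNAA (the pattern of C/EBP and ATF4 composite elements), TGACNNNGC (the antioxidant response element bound by NRF2) and TGANTCA (AP-1). TGACNNNGC and TGANTCA can overlap.
Slc7a11, chr3:50443564-50443863, minus strand: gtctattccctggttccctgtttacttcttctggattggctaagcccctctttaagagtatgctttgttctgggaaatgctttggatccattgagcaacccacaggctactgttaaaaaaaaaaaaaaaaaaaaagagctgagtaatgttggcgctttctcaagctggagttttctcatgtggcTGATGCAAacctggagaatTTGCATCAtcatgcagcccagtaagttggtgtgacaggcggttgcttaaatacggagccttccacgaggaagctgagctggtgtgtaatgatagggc
Slc38a2, chr15:96699679-96699978, minus strand: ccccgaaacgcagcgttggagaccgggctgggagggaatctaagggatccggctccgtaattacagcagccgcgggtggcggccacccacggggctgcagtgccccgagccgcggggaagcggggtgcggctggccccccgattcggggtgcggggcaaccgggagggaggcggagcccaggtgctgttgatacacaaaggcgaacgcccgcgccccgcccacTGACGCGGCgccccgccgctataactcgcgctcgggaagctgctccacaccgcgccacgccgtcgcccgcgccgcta
The Slc7a11 window holds TGATGNAA 2 times, starting 66 and 47 bases before the gene's start, in opposite orientations. The Slc38a2 window holds TGACNNNGC 27 bases before the start. Of 5 windows listed for Slc7a7, 2 hold TGATGNAA and 3 hold none of the patterns, among them the window of the transcript in the expression tables. Over all 32851 promoters in the table, 3.97% held TGATGNAA, 12.4% TGACNNNGC and 7.81% TGANTCA. Of the 42 carrier windows, 4, 6 and 4 held them, which belong to 3, 5 and 4 of the 31 matched genes. The share over all promoters is one of windows, so it compares with the window counts and not with the gene counts. A match is a match of letters and says nothing about binding in these cells.

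Recovered exonic reads per library ran between 7015041 and 27527106, so 3 reads on a transcript of 2 kb stood for 0.0654 to 0.2979 TPM. Macrophage markers summed to between 12742 and 46557 TPM in every library, and lymphocyte markers to at most 1.49 TPM. Granulocyte markers summed to 6.54 to 52.8 TPM in experiments 1 and 2 and to 277 to 524 TPM in experiments 3 and 4. Pbrm1 RNA was at 4.54 and 5.03 TPM in Pbrm1-/- libraries, against 15.6 and 14.7 TPM in Pbrm1 f/f libraries. Arid1a RNA was at 7.17 and 13.2 TPM in Arid1a-/- libraries at 1 hr, against 18.3 and 17.3 TPM in Arid1a f/f libraries, and at 25.4 and 26.1 TPM against 35.2 and 41.9 TPM at 4 hr. The compounds act on protein, which was not measured. The following facts about libraries bear on the results below. The 4 hr wild-type column of experiment 1 is listed under both replicate numbers with identical values, so it counts as a single library, and every compound effect at 4 hr rests on it. A single library has no spread of its own, so each SE and p-value for that group takes its spread from the replicated groups of experiment 1 and assumes that it varies as they do. Replicate 1 of the 1 hr wild-type group in experiment 1 held 145 TPM of 6 stromal markers, against 0.735 TPM in replicate 2. In 3 groups the replicates stood apart, with 413 genes over 2-fold apart in the 4 hr Pbrm1 f/f group, 385 in the 60 min BRM014 group and 265 in the 1 hr Arid1a-/- group, against 43 to 239 in the other groups of 2. In bulk RNA, fewer cells of a type and less RNA per cell cannot be told apart.

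In unstimulated macrophages the family was led by Slc43a2 (LAT4, a carrier of large neutral amino acids) and by Slc3a2, on the length-normalised TPM scale. In experiment 1 at 0 hr, Slc43a2 was at 291 and 298 TPM and Slc3a2 at 127 and 122 TPM, ahead of Slc38a10, a less characterised carrier, at 57.6 and 64.8 TPM. Slc7a8 (LAT2, a light chain for neutral amino acids) followed at 47.0 and 47.0 TPM, then lysosomal Slc38a7 at 38.4 and 44.3 TPM and lysosomal Slc36a1 at 35.8 and 39.2 TPM. The last pair overlapped, so their order is not set by these libraries. Slc43a2 made up 37.4% and 38.02%, and Slc3a2 16.3% and 15.5%, of the summed TPM of all 42 genes. Those 2 genes also led in the unstimulated libraries of the other experiments, with Slc43a2 at 223 and 237 TPM in experiment 2, 240.1 and 271 TPM in experiment 3 and 259 and 286 TPM in experiment 4.

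Not all of the family was expressed. Slc7a2 and Slc7a11, the carriers of arginine and cystine most tied to activation, were under 1 TPM at 0 hr in every experiment. Between 17 and 21 of the 42 genes were at 1 TPM or more in any given library. The 18 that reached it in none were the glutamate carriers Slc1a1, Slc1a2, Slc1a3, Slc1a6 and Slc1a7, together with Slc36a2, Slc36a3, Slc38a3, Slc38a4, Slc38a8, Slc38a11, Slc43a1, Slc7a3, Slc7a9, Slc7a10, Slc7a12, Slc7a14 and Slc7a15. Nearest to that threshold were Slc7a15, whose highest library had 0.964 TPM, and Slc7a13, whose highest had 1.12 TPM. Slc38a5 reached 1.35 TPM only in the 1 hr wild-type library that also held stromal markers. After filtering to genes with at least 1 TPM in 2 libraries of an experiment, 21, 22, 20 and 19 of the 42 were tested in experiments 1 to 4.

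**Figure D1:**
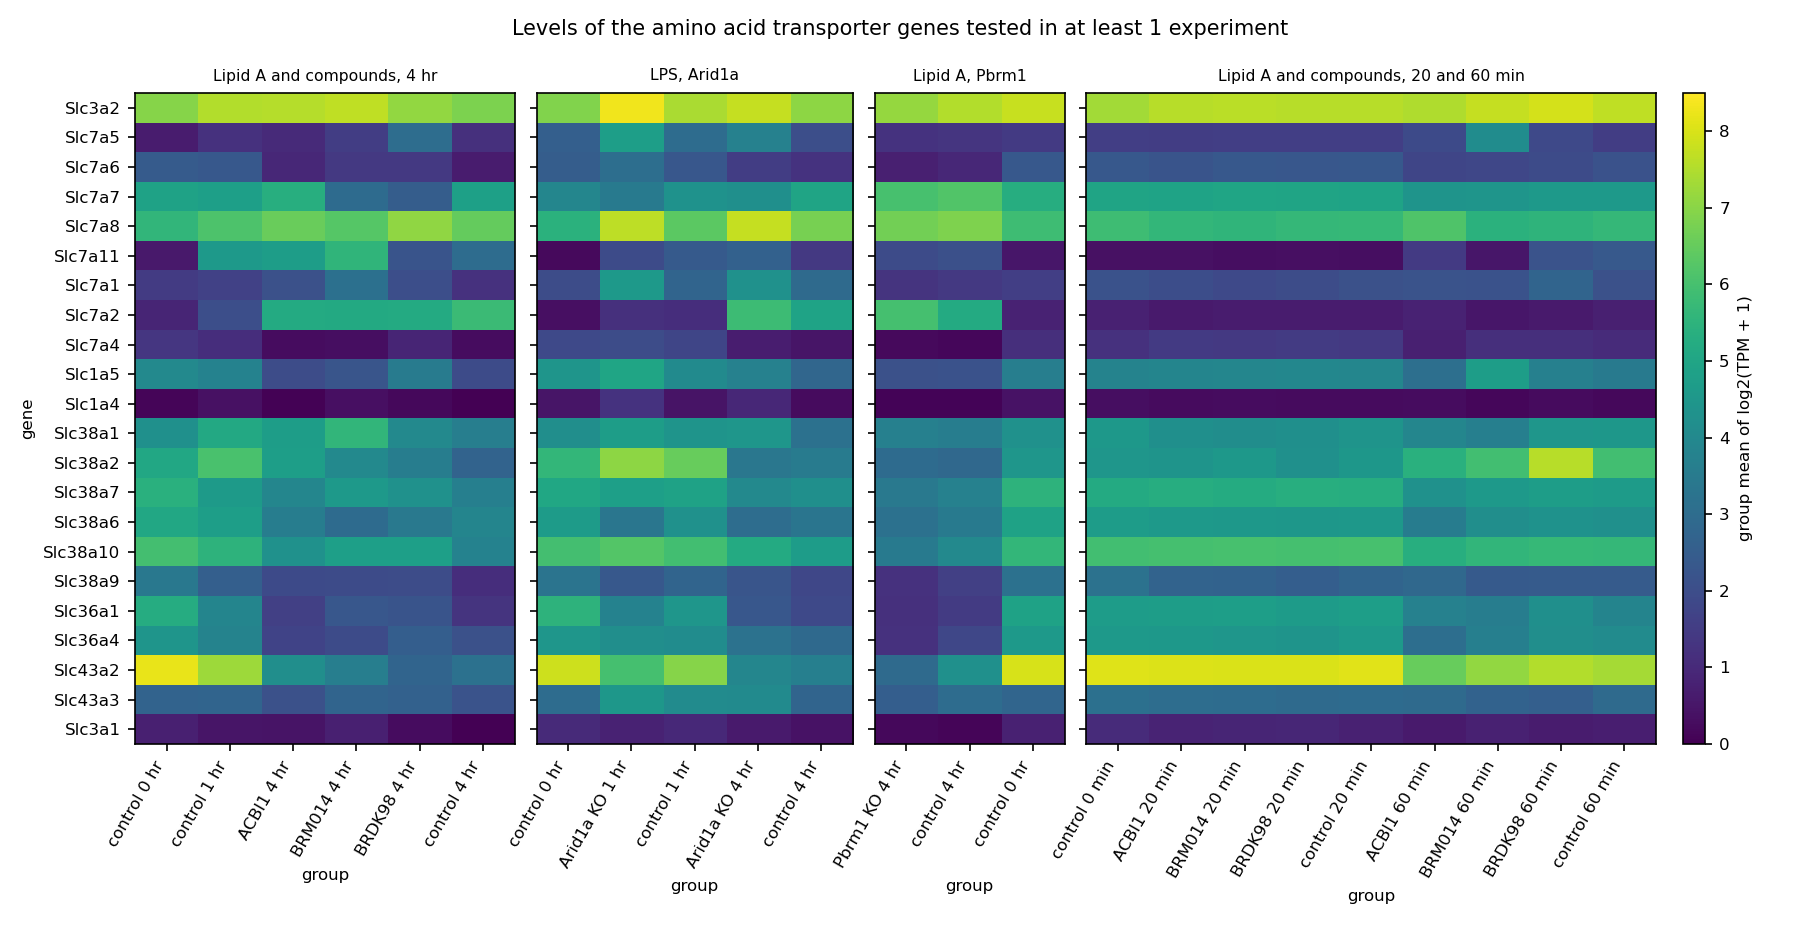
Heat map of log2(TPM + 1) (colour) of the 22 carriers tested in at least 1 experiment (rows), averaged over the libraries of each group (columns), with a single library for the 4 hr control of experiment 1. Slc43a2 and Slc3a2 are brightest at 0 hr, and Slc7a2 is bright in the 4 hr groups and darker elsewhere.

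Lipid A or LPS changed most of the tested carriers by 4 hr, and more of them were lower than higher. In experiment 1, 3 of 21 were higher and 11 lower at 4 hr, with 63.3% of all 11531 tested genes called (20.1% higher and 43.2% lower). The counts were 5 and 11 of 22 in experiment 2, with 56.9% of all genes called (17.9% higher and 39% lower), and 4 and 11 of 20 in experiment 3, with 53% called (16% higher and 37% lower). Shares called for carriers (14 of 21, 16 of 22 and 15 of 20) stood near these backgrounds or somewhat above them. The median carrier changed by -1.06, -0.94 and -1.21 on the log2 scale in experiments 1, 2 and 3, against medians of -0.84, -0.63 and -0.75 over all genes. With a median-ratio scaling the median carrier changed by -0.62, -0.43 and -0.78, against -0.24, -0.12 and -0.18 over all genes. A gene is therefore called changed only where limma's adjusted p was under 0.05 with the same sign on the deposited TPM and on the scaled TPM. Dendritic cell markers summed to 18.3, 7.02 to 9.40 and 36.3 to 58.6 TPM at 4 hr, against 156 to 214, 17.7 to 22.6 and 144 to 163 TPM at 0 hr of experiments 1, 2 and 3, and macrophage markers to 18212, 12742 to 13280.5 and 15073 to 20326 TPM, against 42993 to 46557, 22482 to 23092 and 28705 to 28788 TPM. Their part in the changes was not tested. Changes below are differences of log2(TPM + 1) ± SE on the deposited TPM, which understate the change of low genes.

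Of the arginine carriers, Slc7a2 rose in all 3 experiments that reached 4 hr. In experiment 1 Slc7a2 (CAT2) was at 0.82 and 0.83 TPM at 0 hr, 3.58 and 2.66 TPM at 1 hr and 54.1 TPM in the lone library at 4 hr, a rise of 4.91 ± 0.14 by 4 hr (adjusted p = 1.73e-09). In experiment 2 it was at 0.26 and 0.26 TPM at 0 hr, 1.23 and 1.10 TPM at 1 hr and 30.3 and 29.2 TPM at 4 hr (4.61 ± 0.13, adjusted p = 3.97e-10). No library at 4 hr overlapped with any at 0 or 1 hr. In experiment 3 the 4 hr libraries disagreed, with 69.6 and 18.2 TPM against 0.77 and 0.76 TPM at 0 hr. The rise there was 4.38 ± 0.65, 5.32 without replicate 2 and 3.44 without replicate 1. Slc7a1 (CAT1), the carrier that most cells use for arginine, was at 1.30 TPM at 4 hr, against 1.89 and 1.75 TPM at 0 hr of experiment 1 (-0.29 ± 0.15, not called), and it rose in experiment 2 to 6.23 and 7.26 TPM, against 3.49 and 2.49 TPM (0.97 ± 0.22). In experiment 3 the change of Slc7a1 was -0.17 ± 0.21, not called. Slc7a2 made up 97.7% of the summed Slc7a1 and Slc7a2 TPM at 4 hr of experiment 1, against 30.4% and 32.4% at 0 hr. In experiment 2 that share was 82.9% and 80.1% at 4 hr, against 6.83% and 9.52% at 0 hr. Nos2 was at 501 TPM, against 0.17 TPM at 0 hr of experiment 1 (8.75 ± 0.18). Exons of Slc7a2 overlap those of the noncoding gene Gm26584 over 635 bases, so a small part of its reads cannot be assigned to either.

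The cystine carrier Slc7a11 (xCT) rose early and was lower again by 4 hr. It was at 0.52 and 0.51 TPM at 0 hr of experiment 1, 24.2 and 21.7 TPM at 1 hr and 7.09 TPM at 4 hr. The rise was 3.98 ± 0.12 at 1 hr (adjusted p = 2.65e-09) and 2.42 ± 0.15 at 4 hr, and 4 hr minus 1 hr was -1.57 ± 0.15 in a comparison added after the data were seen. Experiment 2 had the same order at lower levels, with 0.26 and 0.0680 TPM at 0 hr, 4.55 and 4.17 TPM at 1 hr and 1.69 and 1.57 TPM at 4 hr (1.18 ± 0.17 at 4 hr). In experiment 3 the rise at 4 hr was 1.53 ± 0.21. In experiment 4 it was at 0.28 and 0.35 TPM at 0 min, 0.21 and 0.28 TPM at 20 min and 3.65 and 4.67 TPM at 60 min, so it was higher only at 60 min. The level at 1 hr was several times higher in experiment 1 than in experiments 2 and 4, a difference that was not tested. Experiment 2 gave LPS to Arid1a f/f cells, while experiments 1 and 4 gave lipid A to wild-type cells.

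**Figure D2:**
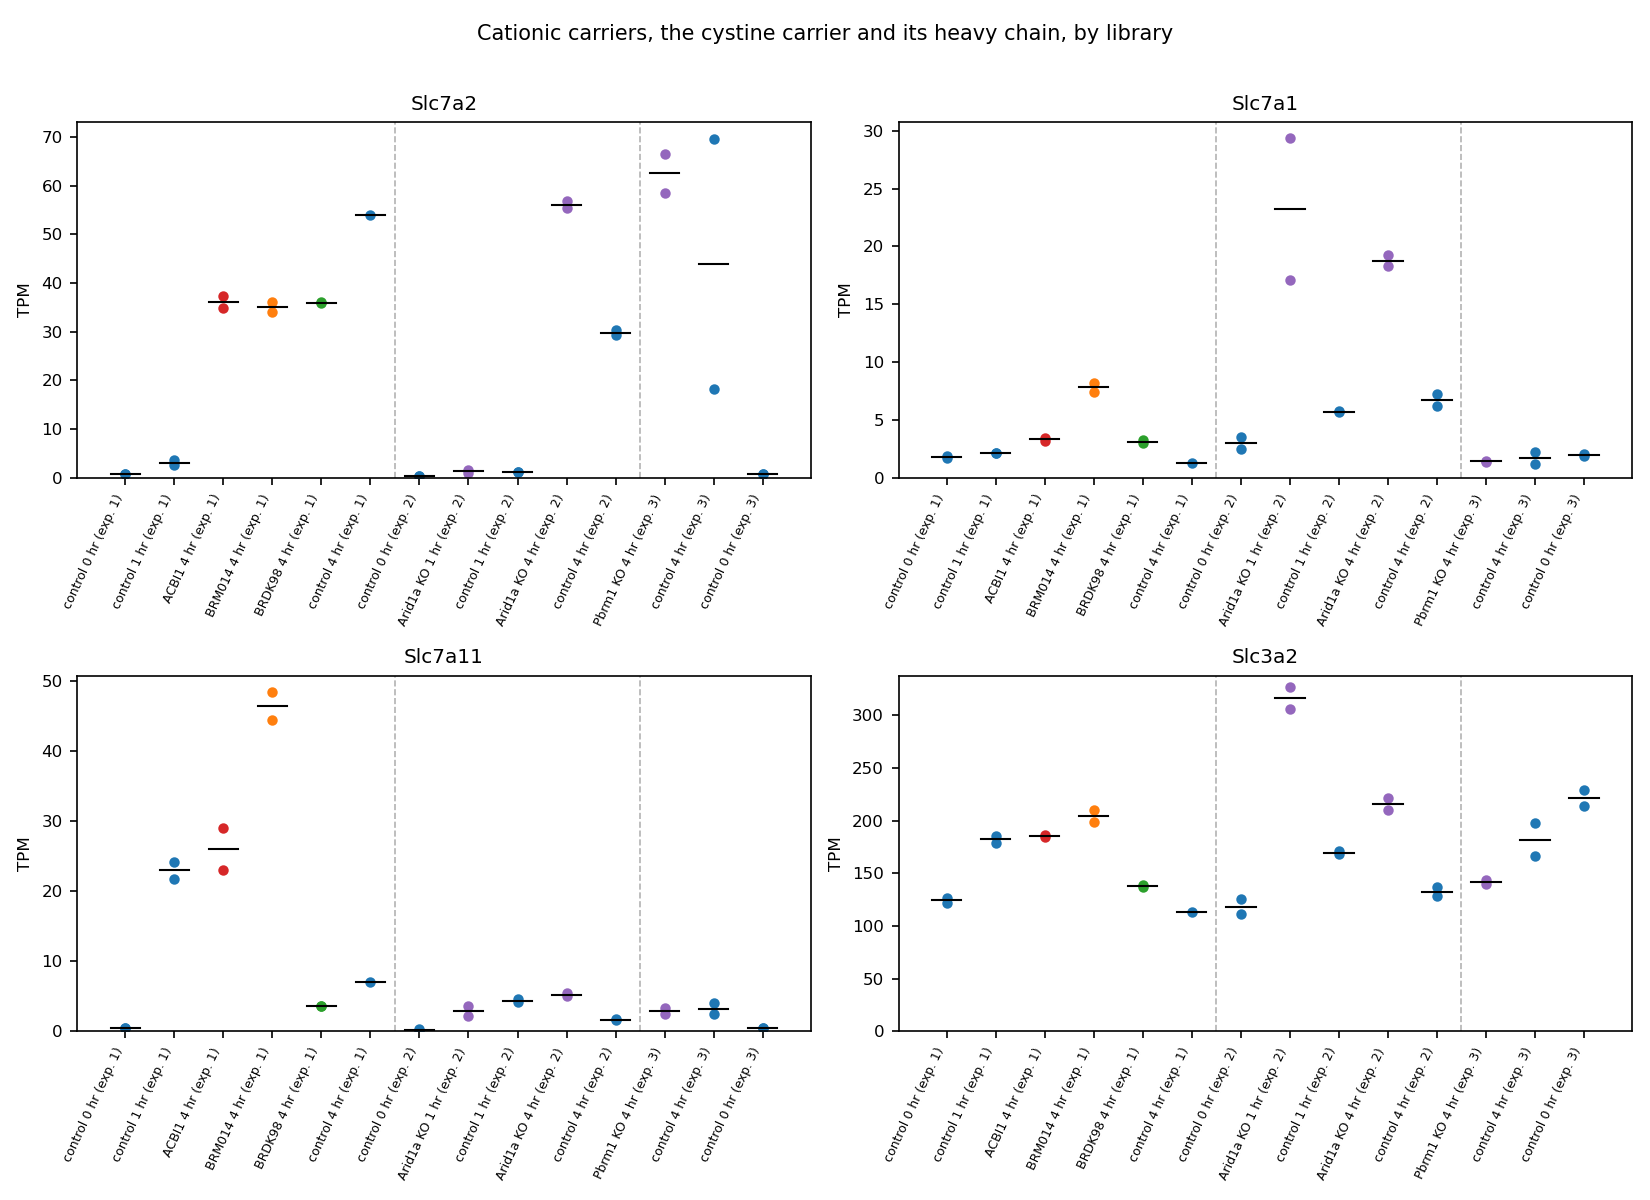
TPM (y, linear from 0) of Slc7a2, Slc7a1, Slc7a11 and Slc3a2 by group of experiments 1 to 3 (x), with 1 point per library and a bar at the group mean. Slc7a2 sits between 18.2 and 69.6 TPM in every 4 hr group and Slc7a11 is highest, at 44.5 and 48.4 TPM, with BRM014 at 4 hr.

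Among the partners of the Slc3a2 heavy chain, Slc7a8 rose and Slc7a6 fell. Slc7a8 was at 89.2 TPM at 4 hr, against 47.0 and 47.0 TPM at 0 hr of experiment 1 (0.91 ± 0.08), and it rose by 1.32 ± 0.12 in experiment 2 and 0.99 ± 0.15 in experiment 3. Slc7a6 (y+LAT2, which exchanges cationic for neutral amino acids) was at 0.58 TPM at 4 hr, against 4.91 and 3.87 TPM at 0 hr (-1.77 ± 0.18), with -1.27 ± 0.15 and -1.40 ± 0.17 in experiments 2 and 3. Its sister Slc7a7 (y+LAT1) rose to 28.8 and 31.2 TPM at 4 hr, against 13.1 and 14.5 TPM at 0 hr of experiment 2 (1.07 ± 0.11), and to 59.6 and 85.5 TPM, against 38.8 and 37.6 TPM, in experiment 3 (0.89 ± 0.19). In experiment 1 Slc7a7 was at 27.8 TPM at 4 hr, against 29.9 and 27.2 TPM (-0.04 ± 0.11 on deposited TPM, 0.70 on scaled TPM, not called). Slc7a7 shares 232 exonic bases with its neighbour Oxa1l.

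The heavy chain itself rose by 1 hr, to 179 and 186 TPM, against 127 and 122 TPM at 0 hr of experiment 1 (0.55 ± 0.07), with 0.52 ± 0.08 at 1 hr of experiment 2 and 0.38 ± 0.08 at 60 min of experiment 4. At 4 hr it was not called in any of the 3 experiments, and in experiments 1 and 3 its direction depended on the scaling. Slc3a2 was at 113 TPM at 4 hr of experiment 1 (-0.13 ± 0.09 on deposited TPM, 0.63 on scaled TPM). The same pair of values was 0.16 ± 0.08 and 0.77 in experiment 2 and -0.28 ± 0.15 and 0.38 in experiment 3, with no call. Slc7a5 (LAT1, the high-affinity light chain for large neutral amino acids) was at 1.28 TPM at 4 hr, against 0.57 and 0.57 TPM at 0 hr (0.54 ± 0.32, not called). In experiment 2 it was at 2.98 and 3.35 TPM at 4 hr, against 5.51 and 4.54 TPM at 0 hr (-0.53 ± 0.13 on deposited TPM, -0.04 on scaled TPM, not called), and in experiment 3 the change was -0.13 ± 0.21, not called. The ratio of all measured light chains to the heavy chain was 1.11 at 4 hr, against 0.653 and 0.651 at 0 hr of experiment 1, a ratio of RNA that says nothing of assembled transporters.

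Most of the sodium-coupled carriers of neutral amino acids were lower at 4 hr. Slc38a2 (SNAT2), which cells induce when amino acids run short, went up first and down later. It was at 37.6 and 29.5 TPM at 0 hr of experiment 1, 66.5 and 63.4 TPM at 1 hr and 5.53 TPM at 4 hr. That is a rise of 0.94 ± 0.12 at 1 hr and a change of -2.39 ± 0.15 at 4 hr, both against 0 hr. Between 1 and 4 hr it changed by -3.34 ± 0.15 in experiment 1 and -2.99 ± 0.12 in experiment 2. Slc1a5 (ASCT2, a glutamine carrier) was at 2.81 TPM at 4 hr, against 13.4 and 16.4 TPM at 0 hr (-2.06 ± 0.25), with changes of -1.62 ± 0.11 and -1.51 ± 0.17 in experiments 2 and 3. Slc38a1 (SNAT1) rose by 0.87 ± 0.09 at 1 hr of experiment 1 and was lower at 4 hr in experiment 2 (-1.03 ± 0.15). At 4 hr of experiment 1 it was at 11.49 TPM (-0.62 ± 0.11 on deposited TPM, 0.09 on scaled TPM, not called). Slc38a2 also fell by 4 hr in experiments 2 and 3 (-2.10 ± 0.12 and -1.61 ± 0.19). Slc38a6 and Slc38a10 fell in all 3 experiments at 4 hr, Slc38a10 by 2.20 ± 0.12, 1.28 ± 0.08 and 1.66 ± 0.17 and Slc38a6 by 1.22 ± 0.15, 1.36 ± 0.10 and 1.44 ± 0.18.

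Slc43a2 and lysosomal Slc36a1 had the largest falls among the carriers called at 4 hr of experiment 1. Slc43a2 was at 291 and 298 TPM at 0 hr of experiment 1, 146 and 157 TPM at 1 hr and 7.90 TPM at 4 hr, a change of -5.05 ± 0.12 by 4 hr (adjusted p = 4.95e-10). It was lower at 4 hr in experiment 2 (-4.17 ± 0.15) and in experiment 3 (-3.74 ± 0.45), and its share of all carrier TPM was 2.13% at 4 hr, against 37.4% and 38.02% at 0 hr of experiment 1. Its exons share 922 bases with the antisense gene Gm45606, counted here without strand. Slc36a1 (PAT1, which exports small amino acids from lysosomes with protons) was at 1.40 TPM at 4 hr, against 35.8 and 39.2 TPM at 0 hr (-4.00 ± 0.16). Slc38a9, a lysosomal arginine sensor for the growth kinase complex mTORC1, fell to 1.15 TPM, against 10.2 and 9.01 TPM (-2.30 ± 0.20), and Slc36a4 fell by 2.31 ± 0.24. Slc38a7, which exports glutamine from lysosomes, changed by -1.73 ± 0.15 in experiment 1 and -1.75 ± 0.15 in experiment 3. In experiment 2 it was not called (-0.84 ± 0.11 on deposited TPM, -0.26 on scaled TPM). The changes in experiments 2 and 3 were -3.60 ± 0.12 and -3.40 ± 0.18 for Slc36a1, -1.57 ± 0.16 and -2.77 ± 0.29 for Slc36a4 and -1.48 ± 0.12 and -1.58 ± 0.23 for Slc38a9.

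Fewer carriers were called at 1 hr than at 4 hr in experiments 1 and 2. In experiment 1, 6 of 21 carriers were higher and 4 lower, with 32.2% of all genes called (9.9% higher and 22.3% lower). In experiment 2, 9 of 22 were higher and 3 lower, with 35.3% of all genes called (13.6% higher and 21.6% lower), and at 60 min of experiment 4 3 of 19 were higher and 3 lower, with 26.6% called (7.47% higher and 19.1% lower). Slc38a2, Slc3a2 and Slc7a11 were called higher, and Slc36a1, Slc38a9 and Slc43a2 lower, in all 3 of these experiments, of 19 carriers tested in each. Of all 10706 genes tested in each, 5.45% were called higher and 10.7% lower in all 3. Set against 1 hr, 2 of 21 carriers were higher and 14 lower at 4 hr in experiment 1, with 61.9% of all genes called (22.7% higher and 39.2% lower). In experiment 2 that comparison had 3 of 22 higher and 14 lower, with 53.4% called (17.7% higher and 35.8% lower). The 4 hr minus 1 hr changes in experiments 1 and 2 were 3.75 ± 0.14 and 3.83 ± 0.13 for Slc7a2, -4.09 ± 0.12 and -3.28 ± 0.15 for Slc43a2, -2.61 ± 0.16 and -2.58 ± 0.12 for Slc36a1 and -1.82 ± 0.25 and -1.28 ± 0.11 for Slc1a5. By 4 hr Slc7a2, Slc7a8 and Slc7a11 were called higher in all 3 experiments that reached it, 3 of 20 carriers tested in each, where 12.7% of all 10531 genes tested in each were. Of the 20, 10 were called lower in all 3, where 28.0% of all genes were, namely Slc1a5, Slc36a1, Slc36a4, Slc38a2, Slc38a6, Slc38a9, Slc38a10, Slc43a2, Slc7a4 and Slc7a6. The 1 hr calls of Slc38a9 in experiments 1 and 2, of Slc38a7 in experiment 1 and of Slc43a2 in experiment 4 were lost when certain single libraries were left out. At 20 min, 0 of 19 carriers passed limma's test, with 1.1% of all genes called (0.736% higher and 0.364% lower), although 2 had an unadjusted p under 0.05, limma-voom on recovered reads called 1 and the authors' deposited table called 2. The changes there lay between -0.15 ± 0.12 for Slc7a8 and 0.26 ± 0.08 for Slc3a2 among Slc3a2, its light chains and Slc7a1.

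The calls at 1 hr took in both directions of the family. Slc36a1 changed by -1.39 ± 0.13 in experiment 1, -1.02 ± 0.12 in experiment 2 and -0.86 ± 0.12 in experiment 4, and Slc43a2 by -0.96 ± 0.09, -0.90 ± 0.15 and -0.74 ± 0.14. Slc38a9 changed by -0.85 ± 0.16, -0.55 ± 0.12 and -0.76 ± 0.11 in the same order, and Slc38a7 by -0.75 ± 0.12 in experiment 1. Slc7a11 rose by 2.21 ± 0.17 in experiment 2 and 1.97 ± 0.11 in experiment 4, and Slc38a2 by 0.89 ± 0.12 and 1.45 ± 0.13. Slc7a2 was already higher at 1 hr in experiments 1 and 2 (1.16 ± 0.12 and 0.78 ± 0.13), as was Slc7a8 (0.54 ± 0.07 and 0.94 ± 0.12). Experiment 2 alone of the 3 had calls at 1 hr for Slc7a1 (0.76 ± 0.22), Slc7a5 (0.41 ± 0.13), Slc7a7 (0.44 ± 0.11) and Slc43a3 (1.09 ± 0.13). The values for these genes that were not called were 0.15 ± 0.13 and -0.01 ± 0.15 for Slc7a1, 0.55 ± 0.26 and -0.05 ± 0.17 for Slc7a5 and -0.09 ± 0.09 and -0.39 ± 0.07 for Slc7a7 in experiments 1 and 4. Slc7a6 was not called in experiments 1, 2 or 4 (-0.09 ± 0.14, -0.21 ± 0.15 and -0.21 ± 0.11), nor was Slc7a8 in experiment 4 (-0.18 ± 0.12). These differences between experiments were not tested.

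**Figure D3:**
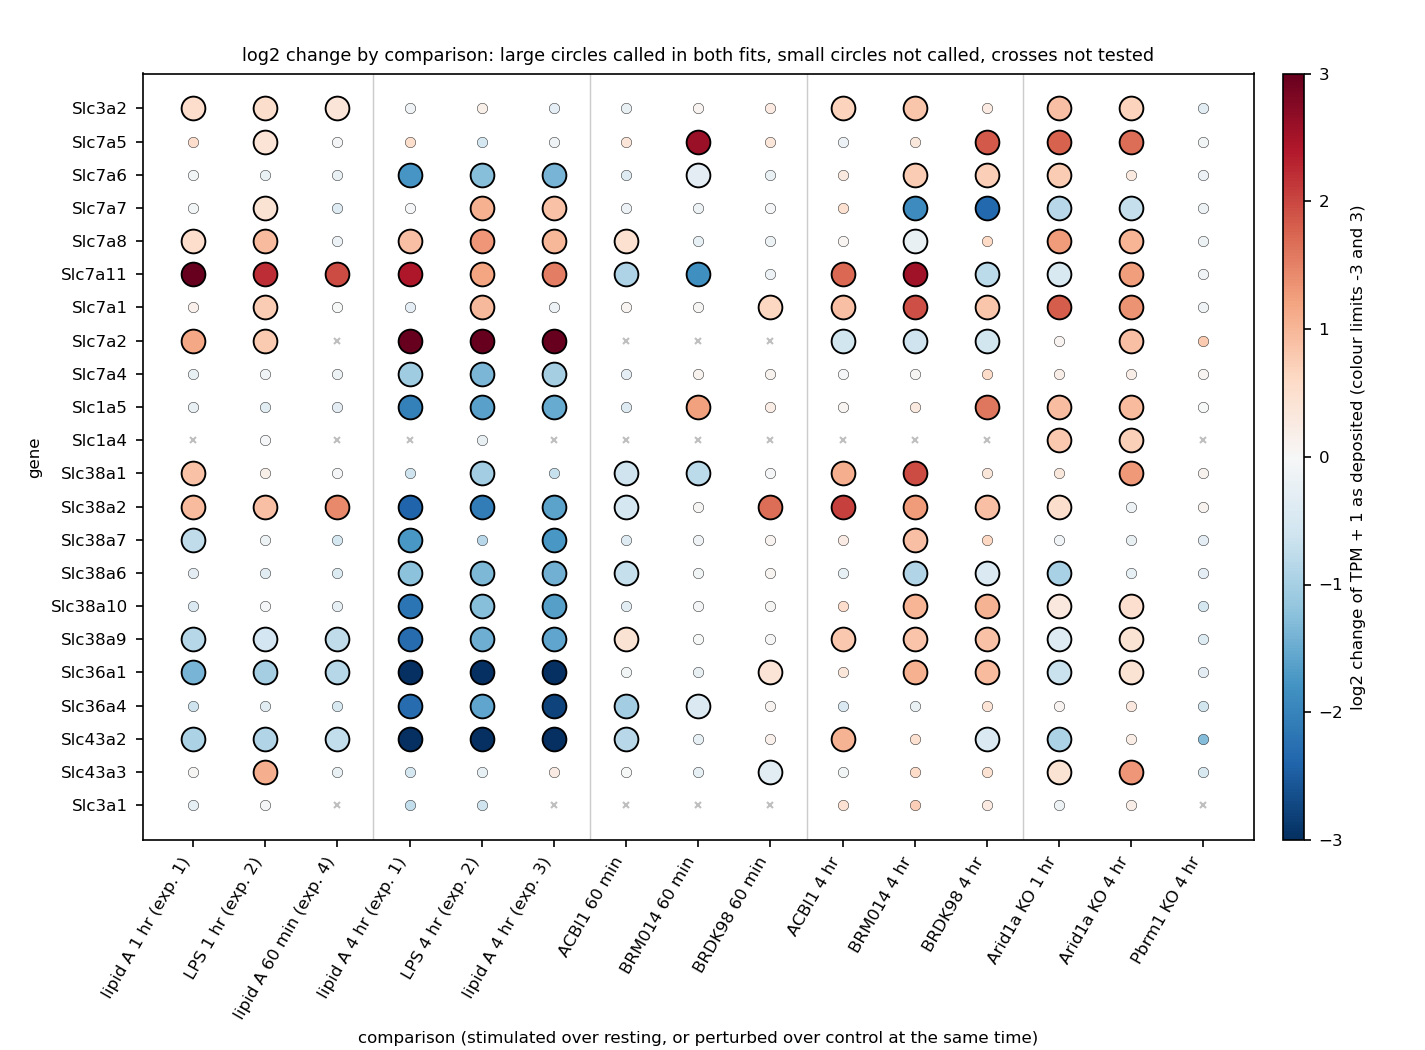
Map of log2 changes (colour, log2(TPM + 1) difference) of the tested carriers (rows) in each comparison (columns), with large circles for changes called on both scalings, small circles for those not called and crosses where a gene was not tested. Colours end at changes of -3 and 3. Slc43a2 and Slc36a1 are the deepest falls in the 4 hr stimulus columns, and Slc7a2 the highest rise.

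With each of the 3 compounds Slc7a2 was lower than in the 4 hr control and far above its 0 hr level, and the other carriers moved in different directions. ACBI1 raised 7 of 21 carriers and lowered 1, with 35.8% of all genes called (22.3% higher and 13.5% lower). BRM014 raised 10 and lowered 4, with 45.7% called (29.3% higher and 16.4% lower), and BRDK98 raised 8 and lowered 5, with 37.2% called (24.7% higher and 12.4% lower). These 3 comparisons share the same lone control library, so a high or low value in it moves all of them. Without replicate 1 of BRDK98, 7 carriers were called with that compound, and Slc38a2, Slc38a6, Slc7a1 and Slc7a6 lost their calls. Slc7a6 and Slc38a7 lost theirs with BRM014 without replicate 1 of BRM014. The median carrier changed by 0.36, 0.74 and 0.58 with ACBI1, BRM014 and BRDK98, against 0.25, 0.43 and 0.46 over all genes. With scaling the median carrier changed by 0.19, 0.35 and 0.09, against 0.03, 0.06 and 0.03 over all genes. Granulocyte markers summed to 24.4 to 31.3 TPM with ACBI1, 43.3 to 52.8 TPM with BRM014 and 6.54 to 6.60 TPM with BRDK98, against 21.6 TPM in the control, with 2, 2, 2 and 3 of 8 at 0. Dendritic cell markers summed to 28.7 to 31.3, 36.1 to 36.9 and 16.9 to 18.5 TPM with ACBI1, BRM014 and BRDK98, against 18.3 TPM. Macrophage markers summed to 23393 to 24568, 26205 to 27542 and 18628 to 18823 TPM, against 18212 TPM. The part of these shifts in the compound effects was not tested.

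Slc7a2 was at 37.4 and 34.8 TPM with ACBI1, 36.1 and 34.1 TPM with BRM014 and 36.1 and 35.9 TPM with BRDK98, against 54.1 TPM in the 4 hr control. The changes were -0.57 ± 0.14, -0.61 ± 0.14 and -0.57 ± 0.14. The 6 treated libraries lay between 34.1 and 37.4 TPM, and the differences between compounds were -0.04 ± 0.12 for BRM014 minus ACBI1 (95% interval -0.30 to 0.22), -0.00 ± 0.12 for BRDK98 minus ACBI1 (-0.26 to 0.25) and 0.04 ± 0.12 for BRDK98 minus BRM014 (-0.22 to 0.29). On scaled TPM these were -0.23 (adjusted p = 0.117), -0.26 (adjusted p = 0.0619) and -0.04 (adjusted p = 0.795) by limma, none of them called, so the size of a difference from ACBI1 depended on the scaling. With BRM014, Nos2, an enzyme that uses imported arginine, averaged 8.53 TPM, against 501 TPM in the control (-5.72 ± 0.18). With BRDK98 it averaged 55.3 TPM, against 501 TPM in the control (-3.16 ± 0.18). Slc7a1 rose with BRM014 to 8.21 and 7.45 TPM, against 1.30 TPM in the control (1.94 ± 0.15), and it rose by 0.91 ± 0.15 with ACBI1 and 0.84 ± 0.15 with BRDK98.

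Slc7a11 differed between all 3 compounds. It was at 29.0 and 23.1 TPM with ACBI1, 44.5 and 48.4 TPM with BRM014 and 3.64 and 3.65 TPM with BRDK98, against 7.09 TPM in the control. Both ACBI1 libraries and both BRM014 libraries were above the control, and both BRDK98 libraries were below it. The changes were 1.73 ± 0.15 with ACBI1 (adjusted p = 1.86e-05), 2.55 ± 0.15 with BRM014 (adjusted p = 5.79e-07) and -0.80 ± 0.15 with BRDK98 (adjusted p = 0.00107). BRDK98 lay -3.35 ± 0.12 from BRM014 (95% interval -3.63 to -3.08) and -2.53 ± 0.12 from ACBI1 (-2.81 to -2.26), while BRM014 lay 0.82 ± 0.12 from ACBI1 (0.54 to 1.09). In the BRM014 libraries Slc7a11 made up 33.9% and 35.99% of the light chain TPM, against 5.63% in the control.

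Slc7a7 fell with BRM014 and BRDK98. It was at 37.5 and 41.0 TPM with ACBI1, 6.71 and 6.90 TPM with BRM014 and 4.61 and 4.67 TPM with BRDK98, against 27.8 TPM in the control. The changes were -1.88 ± 0.11 with BRM014 (adjusted p = 6.30e-07) and -2.35 ± 0.11 with BRDK98 (adjusted p = 2.49e-07), while the change with ACBI1 was 0.48 ± 0.11 and not called. BRM014 lay -2.37 ± 0.09 from ACBI1 and BRDK98 -2.83 ± 0.09 from ACBI1. Slc7a7 made up 5.11% and 5.13% of light chain TPM with BRM014 and 2.98% and 3.14% with BRDK98, against 22.1% in the control. Mertk and Fcgr1, macrophage receptors, fell with BRM014 too (-2.16 ± 0.10 and -1.86 ± 0.17). Of 7 macrophage markers, 2 fell and 0 rose with BRM014, against 3 fallen and 0 risen with BRDK98. Over all genes 16.4% were lower and 29.3% higher with BRM014, and 12.4% and 24.7% with BRDK98. The summed TPM of the 7 markers was nevertheless 26205 to 27542 with BRM014, against 18212 in the control. With BRDK98 it was 18628 to 18823. The part of a shift in cell state in the Slc7a7 values was not tested.

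Slc3a2 rose with ACBI1 and BRM014, and Slc7a5 with BRDK98. Slc3a2 was at 186 and 184 TPM with ACBI1 and 210.1 and 198 TPM with BRM014, against 113 TPM in the control (0.70 ± 0.09 and 0.84 ± 0.09). With BRDK98 it was at 138 and 137 TPM, 0.28 ± 0.09 on deposited TPM and -0.29 on scaled TPM, so it has no call. Slc7a8 was at 94.7 and 92.3 TPM with ACBI1, 76.2 and 76.0 TPM with BRM014 and 137 and 132 TPM with BRDK98, against 89.2 TPM. It was called lower with BRM014 (-0.23 ± 0.08), a call lost on leaving out 8 of the 10 other libraries in turn, and lay 0.81 ± 0.07 higher with BRDK98 than with BRM014. Slc7a5 rose with BRDK98 to 7.10 and 7.30 TPM, against 1.28 TPM (1.85 ± 0.32), and was at 0.89 and 1.15 TPM with ACBI1 and 2.22 and 1.59 TPM with BRM014. BRDK98 minus ACBI1 was 2.03 ± 0.26 for Slc7a5, and BRDK98 minus BRM014 was 1.51 ± 0.26. Slc7a6 rose with BRM014 (0.75 ± 0.18) and with BRDK98 (0.74 ± 0.18). The changes not called were -0.18 ± 0.32 for Slc7a5, 0.30 ± 0.18 for Slc7a6 and 0.07 ± 0.08 for Slc7a8 with ACBI1, 0.34 ± 0.32 for Slc7a5 with BRM014 and 0.59 ± 0.08 for Slc7a8 with BRDK98.

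**Figure D4:**
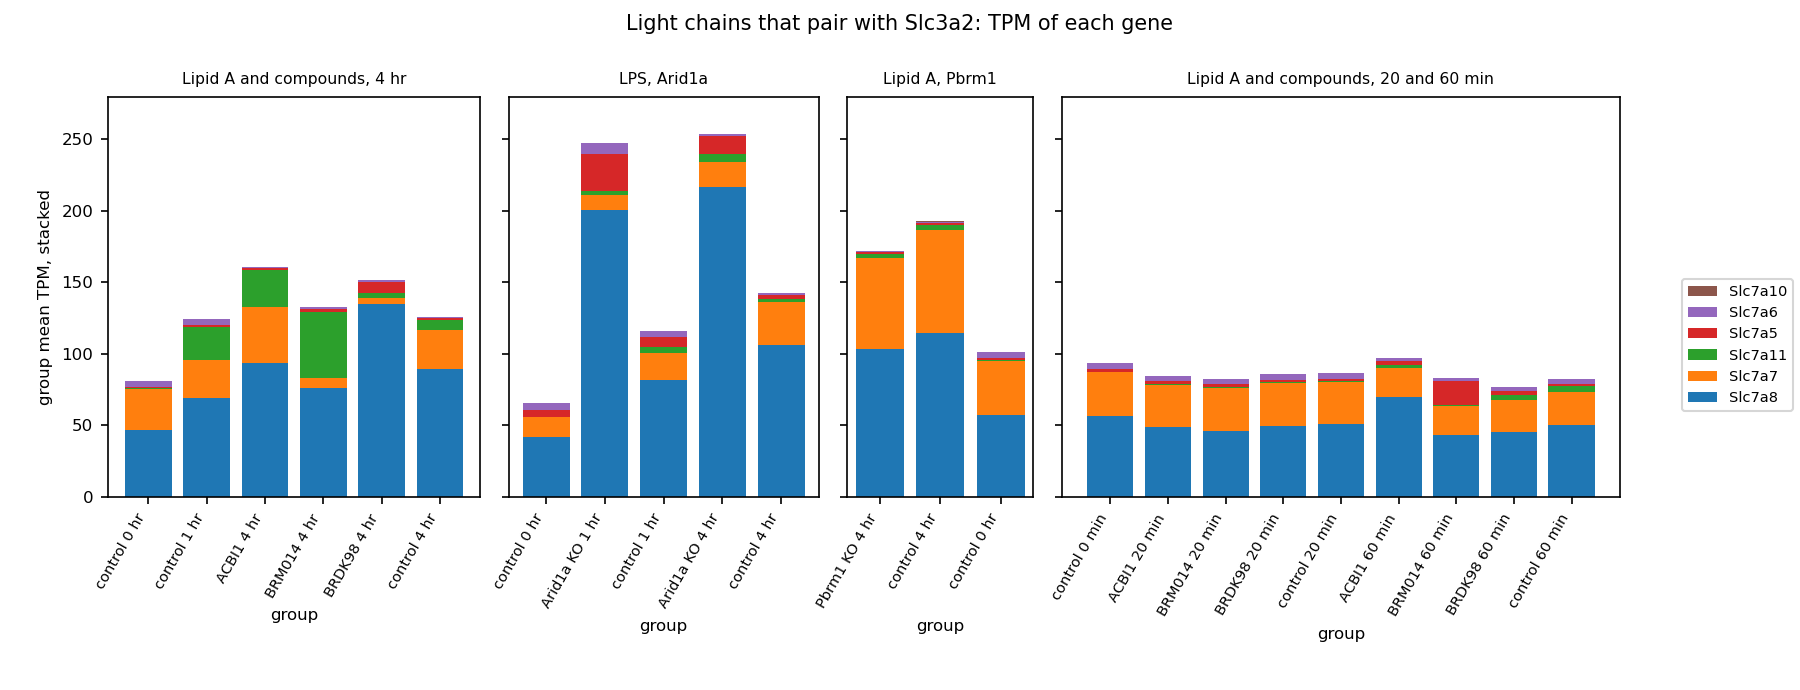
Group mean TPM (y, stacked from 0) of 6 light chains of Slc3a2 (colours) in each group (x) of the 4 experiments (panels). Slc7a8 takes the largest part of each stack, and in experiment 1 Slc7a7 takes 5.11% and 5.13% of the light chain TPM in the BRM014 libraries, against 22.1% in the 4 hr control.

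Slc38a2, which had fallen with lipid A, was higher with each compound. It was at 26.8 and 25.4 TPM with ACBI1, 13.7 and 16.3 TPM with BRM014 and 11.1 and 11.2 TPM with BRDK98, against 5.53 TPM in the control, rises of 2.05 ± 0.15, 1.29 ± 0.15 and 0.90 ± 0.15. Slc38a1 rose to 48.8 and 46.1 TPM with BRM014 (1.96 ± 0.11) and 25.1 and 25.7 TPM with ACBI1 (1.08 ± 0.11), against 11.49 TPM, and was at 15.8 and 14.3 TPM with BRDK98. BRDK98 lay -1.59 ± 0.09 from BRM014 for Slc38a1. Slc1a5 rose with BRDK98 to 10.3 and 10.8 TPM, against 2.81 TPM (1.60 ± 0.25), and was 1.55 ± 0.21 higher with BRDK98 than with ACBI1. Slc38a6 fell with BRM014 (-0.89 ± 0.15) and BRDK98 (-0.44 ± 0.15).

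Slc43a2 and the lysosomal carriers stayed under their 0 hr levels with each compound. Slc43a2 was at 17.4 and 17.1 TPM with ACBI1, 11.6 and 11.2 TPM with BRM014 and 6.17 and 5.12 TPM with BRDK98, against 7.90 TPM in the control. It was higher with ACBI1 (1.04 ± 0.12) and lower with BRDK98 (-0.43 ± 0.12), and BRDK98 lay -1.46 ± 0.09 from ACBI1. Slc36a1 rose to 4.23 and 3.77 TPM with BRM014 (1.06 ± 0.16) and 4.10 and 3.15 TPM with BRDK98 (0.94 ± 0.16), against 1.40 TPM. Slc38a9 rose with ACBI1, BRM014 and BRDK98 by 0.82 ± 0.20, 0.85 ± 0.20 and 0.87 ± 0.20, and Slc38a10 rose with BRM014 and BRDK98 by 1.03 ± 0.12 and 1.03 ± 0.12. Slc38a7 rose with BRM014 (0.90 ± 0.15). Of 21 carriers, BRM014 minus ACBI1 was higher for 6 and lower for 5, with 31.6% of all genes called (17.5% higher and 14.1% lower). BRDK98 minus ACBI1 was higher for 6 and lower for 6, with 37% called (21.6% higher and 15.4% lower), and BRDK98 minus BRM014 was higher for 5 and lower for 7, with 44.7% called (22.7% higher and 22.1% lower). Slc7a1 was 1.03 ± 0.13 from ACBI1 with BRM014 and -1.10 ± 0.13 from BRM014 with BRDK98. Slc38a2 lay -0.76 ± 0.12 from ACBI1 with BRM014 and -1.15 ± 0.12 with BRDK98, and Slc38a1 0.87 ± 0.09 and -0.72 ± 0.09. For Slc3a2, BRDK98 lay -0.42 ± 0.07 from ACBI1 and -0.56 ± 0.07 from BRM014, while BRM014 minus ACBI1 was 0.14 ± 0.07 (95% interval -0.02 to 0.30) and not called.

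At 20 min of lipid A no compound had moved a carrier past the threshold. With ACBI1, BRM014 and BRDK98, 0 of 19 carriers passed limma's test, with 0.147% (0.0866% higher and 0.0606% lower), 0.39% (0.0606% higher and 0.329% lower) and 1.35% (0.502% higher and 0.849% lower) of all genes called. For each compound, 0 had an unadjusted p under 0.05 or were called by limma-voom or in the authors' deposited table. Among Slc7a11, Slc3a2, its light chains and Slc7a1, the changes at 20 min lay between -0.23 ± 0.15 for Slc7a1 with BRM014 and 0.07 ± 0.11 for Slc7a11 with ACBI1. By 60 min the compounds differed. ACBI1 raised 2 of 19 carriers and lowered 6, with 26% of all genes called (11.6% higher and 14.5% lower). BRM014 raised 2 and lowered 4, with 30.4% called (16.9% higher and 13.5% lower), and BRDK98 raised 3 and lowered 1, with 11.6% called (6.04% higher and 5.56% lower). Without replicate 1 of ACBI1 the ACBI1 count was 5, with Slc7a8 and Slc38a9 lost. Leaving out either control or either BRDK98 library brought the BRDK98 count to 1 or 2. With ACBI1 at 60 min granulocyte markers summed to 277 to 292 TPM, against 434 to 454 TPM in the control, dendritic cell markers to 97.7 to 99.2 TPM, against 159 to 172 TPM, and macrophage markers to 26552 to 26962 TPM, against 32372 to 32968 TPM. With BRM014 and BRDK98 granulocyte markers summed to 455 to 517 and 420.3 to 497 TPM, dendritic cell markers to 159 to 164 and 135 to 150.3 TPM and macrophage markers to 31260.5 to 32405 and 36009 to 38461 TPM. The part of these shifts in the carrier changes was not tested.

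Slc7a11 at 60 min was at 1.59 and 1.84 TPM with ACBI1, 0.37 and 0.49 TPM with BRM014 and 3.54 and 3.54 TPM with BRDK98, against 3.65 and 4.67 TPM in the control. BRM014 libraries were near the 0.28 and 0.35 TPM of unstimulated cells. The changes were -0.92 ± 0.11 with ACBI1 (adjusted p = 3.22e-05) and -1.85 ± 0.11 with BRM014 (adjusted p = 2.90e-08), and the change with BRDK98 was -0.18 ± 0.11, not called. BRM014 lay -0.93 ± 0.11 from ACBI1 and BRDK98 1.67 ± 0.11 from BRM014. At 4 hr, in experiment 1, Slc7a11 was higher than its control with ACBI1 and BRM014, and lower with BRDK98. The 2 times come from separate experiments, and their difference was not tested.

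Slc7a5 and Slc1a5 rose with BRM014 at 60 min. Slc7a5 was at 12.6 and 21.2 TPM with BRM014, against 1.72 and 2.08 TPM in the control (2.59 ± 0.17, adjusted p = 7.42e-08), and it was at 2.85 and 2.74 TPM with ACBI1 and 3.04 and 2.40 TPM with BRDK98. Slc1a5 was at 22.2 and 29.0 TPM with BRM014, against 10.4 and 9.97 TPM (1.24 ± 0.11). Neither gene's BRM014 libraries overlapped with the control's, although those libraries stood apart from each other over 385 genes. Without replicate 1 or replicate 2 of BRM014 the Slc7a5 change was 2.94 or 2.23, and the number of carriers called was 4 without replicate 1 and 10 without replicate 2. BRM014 lay 2.19 ± 0.17 from ACBI1 for Slc7a5, and BRDK98 lay -2.23 ± 0.17 from BRM014.

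Slc38a2 rose with BRDK98 at 60 min. It was at 181 and 205 TPM with BRDK98, 40.9 and 40.7 TPM with ACBI1 and 50.2 and 72.7 TPM with BRM014, against 55.5 and 63.1 TPM in the control and 21.7 and 20.5 TPM at 0 min. BRDK98 raised it by 1.68 ± 0.13 (adjusted p = 7.70e-07) and ACBI1 lowered it (-0.53 ± 0.13), while BRM014 gave 0.03 ± 0.13 with no call. BRDK98 lay 2.21 ± 0.13 from ACBI1 (95% interval 1.92 to 2.503) and 1.66 ± 0.13 from BRM014 (1.37 to 1.95). Atf4, the transcription factor of the amino acid response, was higher with BRM014 at 60 min (1.08 ± 0.06). Its partner Ddit3 was higher with BRM014 (2.15 ± 0.10) and with BRDK98 (1.503 ± 0.10). The Atf4 value with BRDK98 is not given here, and the part of either gene in the Slc38a2 values was not tested. Slc7a1 rose with BRDK98 to 5.85 and 5.64 TPM, against 3.12 and 3.59 TPM (0.63 ± 0.15).

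ACBI1 at 60 min lowered Slc36a4 (-1.04 ± 0.16), Slc43a2 (-0.84 ± 0.14), Slc38a6 (-0.72 ± 0.09) and Slc38a1 (-0.61 ± 0.16), and raised Slc7a8 (0.47 ± 0.12) and Slc38a9 (0.43 ± 0.11). Slc43a2 was at 96.3 and 85.2 TPM with ACBI1, against 148 and 178 TPM in the control, and Slc7a8 was at 75.1 and 65.1 TPM, against 49.7 and 50.4 TPM. Slc7a7 was at 20.2 and 20.4 TPM with ACBI1, 21.1 and 20.1 TPM with BRM014 and 23.4 and 21.5 TPM with BRDK98, against 23.6 and 22.6 TPM in the control, with no call. Slc3a2 was at 173 and 181 TPM with ACBI1, 227 and 205 TPM with BRM014 and 252 and 240.2 TPM with BRDK98, against 200.4 and 211 TPM, with no call either. Slc7a6 fell with BRM014 (-0.32 ± 0.11), as did Slc38a1 (-0.82 ± 0.16) and Slc36a4 (-0.43 ± 0.16). With BRDK98, Slc36a1 rose (0.40 ± 0.12) and Slc43a3 fell (-0.35 ± 0.10). Slc7a1 gave 0.05 ± 0.15 with ACBI1 and 0.02 ± 0.15 with BRM014, Slc7a5 0.39 ± 0.17 with ACBI1 and 0.36 ± 0.17 with BRDK98, Slc7a6 -0.38 ± 0.11 and -0.20 ± 0.11 with the same 2 compounds, and Slc7a8 -0.24 ± 0.12 with BRM014 and -0.15 ± 0.12 with BRDK98, none of them called. Slc3a2 and Slc7a7 were not called with any compound at 60 min, at -0.21 ± 0.08 and -0.18 ± 0.07 with ACBI1, 0.07 ± 0.08 and -0.16 ± 0.07 with BRM014 and 0.26 ± 0.08 and -0.04 ± 0.07 with BRDK98. Slc7a2 stayed under 1 TPM in every library of experiment 4 and was not tested there.

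Between compounds at 60 min, in comparisons added after the data were seen, BRM014 minus ACBI1 was higher for 7 of 19 carriers and lower for 4, with 48.7% of all genes called (29.1% higher and 19.6% lower). BRDK98 minus ACBI1 was higher for 10 and lower for 3, with 35.8% called (21.5% higher and 14.3% lower), and BRDK98 minus BRM014 was higher for 7 and lower for 2, with 26.9% called (14.5% higher and 12.4% lower). Slc1a5 lay 1.63 ± 0.11 from ACBI1 with BRM014 and 0.62 ± 0.11 with BRDK98, Slc36a4 0.61 ± 0.16 and 1.12 ± 0.16, Slc43a2 0.60 ± 0.14 and 0.99 ± 0.14, and Slc7a8 -0.71 ± 0.12 and -0.62 ± 0.12. BRDK98 lay -1.01 ± 0.11 from BRM014 for Slc1a5 and 0.80 ± 0.16 for Slc38a1. The change of a compound's effect between 20 and 60 min was itself called for 6 carriers with ACBI1, 3 with BRM014 and 2 with BRDK98, where 19% (9.37% higher and 9.59% lower), 13.4% (6.94% higher and 6.42% lower) and 6.65% (3.56% higher and 3.09% lower) of all genes were called. For BRM014 these were Slc7a5 (2.58 ± 0.24), Slc1a5 (1.22 ± 0.16) and Slc7a11 (-1.83 ± 0.16). For BRDK98 they were Slc38a2 (1.92 ± 0.19) and Slc7a1 (0.75 ± 0.21).

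**Figure D5:**
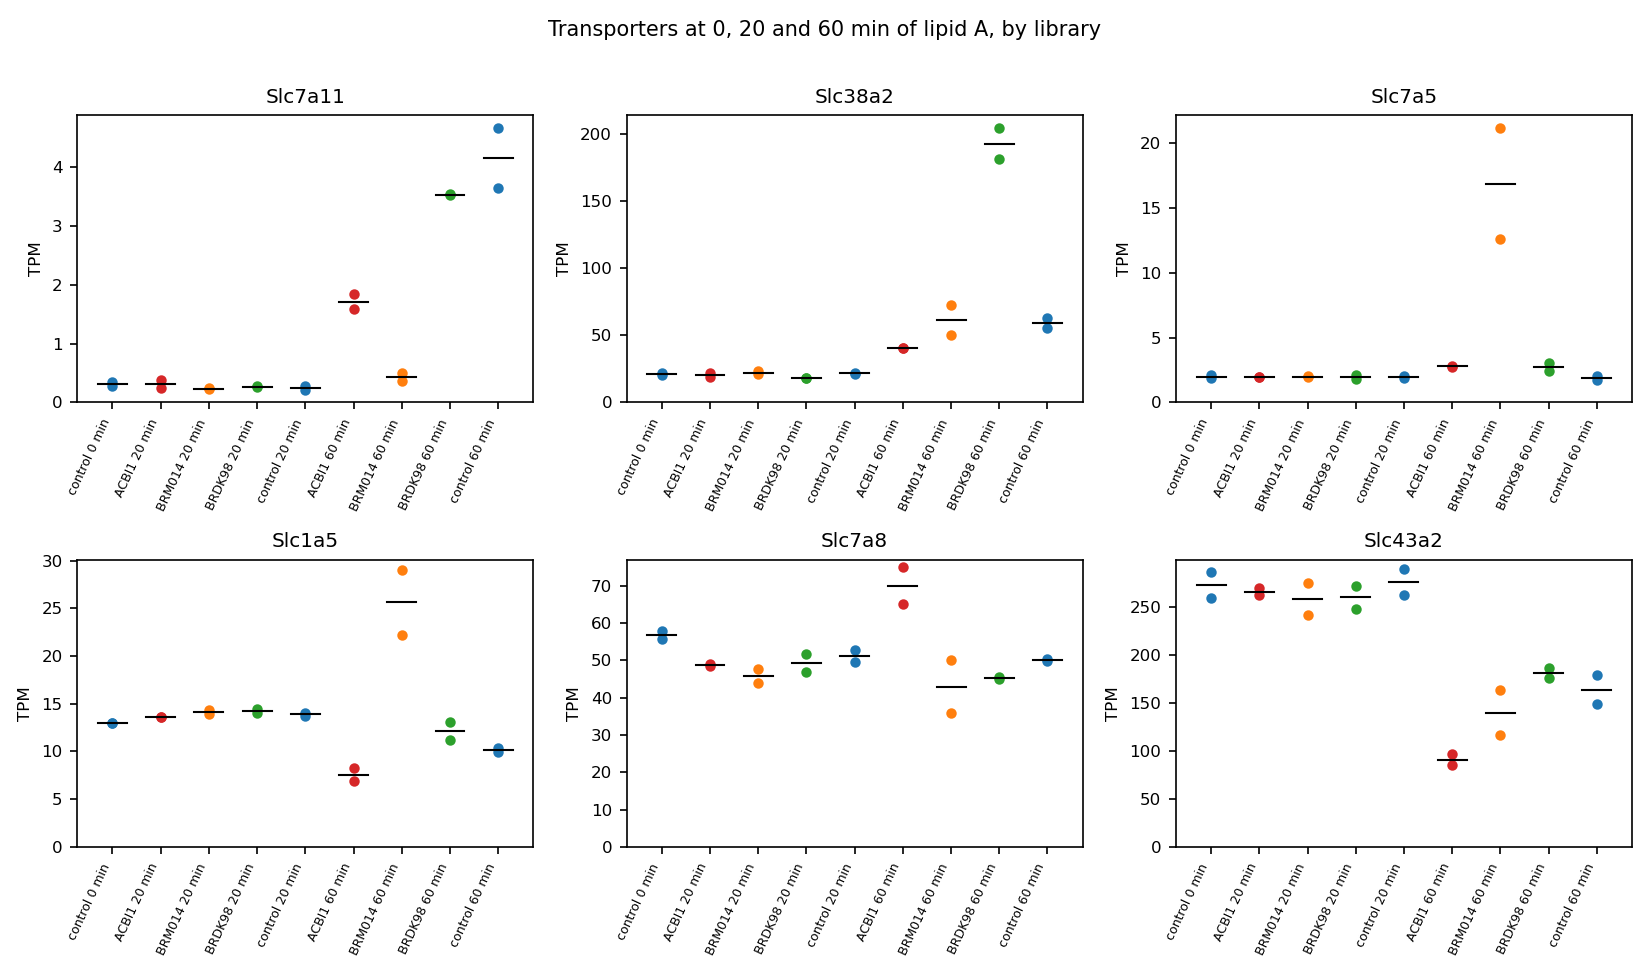
TPM (y, linear from 0) of Slc7a11, Slc38a2, Slc7a5, Slc1a5, Slc7a8 and Slc43a2 in the libraries of experiment 4 by time and compound (x), with 1 point per library and a bar at the group mean. At 60 min Slc38a2 is at 181 and 205 TPM with BRDK98, Slc7a5 at 12.6 and 21.2 TPM with BRM014, and Slc7a11 at 0.37 and 0.49 TPM with BRM014.

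Loss of Arid1a raised most of the carriers it changed. At 1 hr of LPS, 10 of 22 carriers were higher and 6 lower in Arid1a-/- cells, with 35.2% of all genes called (18.4% higher and 16.8% lower). At 4 hr 13 were higher and 1 lower, with 25% of all genes called (14.1% higher and 10.8% lower). The median carrier changed by 0.26 at 1 hr and 0.47 at 4 hr on the log2 scale, against 0.03 and 0.05 over all genes. Markers of cell types moved as well. At 1 hr dendritic cell markers summed to 5.50 to 6.07 TPM in Arid1a-/- cells, against 16.5 to 19.0 TPM in Arid1a f/f cells, with 2 of 8 at 0 in each. Macrophage markers summed to 14934 to 14973 TPM, against 19073 to 19242 TPM, and granulocyte markers to 33.7 to 40.0 TPM, against 23.9 to 24.7 TPM. At 4 hr the sums were 5.25 to 5.54 TPM, against 7.02 to 9.40 TPM, for dendritic cell markers, 14123 to 14842 TPM, against 12742 to 13280.5 TPM, for macrophage markers and 31.0 to 38.4 TPM, against 16.7 to 26.5 TPM, for granulocyte markers. Their part in the carrier changes was not tested.

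RNA of Slc3a2 and of its partners Slc7a8 and Slc7a5 was higher in Arid1a-/- cells. Slc3a2 was at 327 and 306 TPM in Arid1a-/- cells at 1 hr, against 171 and 168 TPM in Arid1a f/f cells (0.89 ± 0.08), and at 210.0 and 221 TPM against 128 and 137 TPM at 4 hr (0.70 ± 0.08). Slc7a8 was at 218 and 215 TPM, against 104 and 109 TPM at 4 hr (1.02 ± 0.12), and Slc7a5 was at 13.1 and 11.7 TPM, against 2.98 and 3.35 TPM (1.68 ± 0.13, adjusted p = 1.52e-05). At 1 hr Slc7a5 was at 25.6 and 26.8 TPM, against 7.49 and 6.47 TPM (1.77 ± 0.13), and Slc7a8 was at 173 and 228 TPM, against 82.4 and 80.9 TPM (1.27 ± 0.12). No Arid1a-/- library overlapped with its control for these genes. Slc7a7 fell to 9.71 and 10.9 TPM at 1 hr, against 19.5 and 18.8 TPM (-0.84 ± 0.11), and to 16.4 and 19.3 TPM at 4 hr, against 28.8 and 31.2 TPM (-0.72 ± 0.11). It was the single carrier called lower at 4 hr, and made up 6.44% and 7.62% of light chain TPM in Arid1a-/- cells, against 20.7% and 21.4% in Arid1a f/f cells. Slc7a6 rose at 1 hr (0.77 ± 0.15) and was at 1.76 and 2.07 TPM at 4 hr, against 1.62 and 1.15 TPM (0.29 ± 0.15, not called).

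Both cationic carriers were higher by 4 hr. Slc7a2 was at 55.4 and 56.8 TPM in Arid1a-/- cells, against 30.3 and 29.2 TPM in Arid1a f/f cells at 4 hr (0.89 ± 0.13, adjusted p = 0.000594), and at 1.04 and 1.53 TPM against 1.23 and 1.10 TPM at 1 hr (0.07 ± 0.13, not called). The knockout effect on Slc7a2 differed between 4 hr and 1 hr by 0.82 ± 0.18 (adjusted p = 0.0121), a call lost without replicate 1 of the 1 hr Arid1a f/f group. Slc7a1 was at 17.1 and 29.4 TPM at 1 hr, against 5.64 and 5.76 TPM (1.81 ± 0.22), and at 19.3 and 18.3 TPM at 4 hr, against 6.23 and 7.26 TPM (1.36 ± 0.22). The 1 hr Arid1a-/- libraries differed in Slc7a1 and in Arid1a itself. Arg1, the arginase that competes with Nos2 for arginine, averaged 8.35 TPM, against 0.25 TPM in Arid1a f/f cells at 4 hr (2.89 ± 0.22).

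Slc7a11 turned with time. It was at 2.20 and 3.58 TPM in Arid1a-/- cells at 1 hr, against 4.55 and 4.17 TPM in Arid1a f/f cells (-0.48 ± 0.17), a call lost on leaving out 9 of the 10 libraries in turn. At 4 hr it was at 4.99 and 5.49 TPM, against 1.69 and 1.57 TPM (1.24 ± 0.17, adjusted p = 0.000522). The effect at 4 hr minus that at 1 hr was 1.73 ± 0.24 (adjusted p = 0.00149).

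Several neutral amino acid carriers were also higher. Slc1a5 was at 30.2 and 31.6 TPM in Arid1a-/- cells, against 17.1 and 14.7 TPM at 1 hr (0.92 ± 0.11), and at 13.0 and 11.96 TPM, against 6.14 and 5.76 TPM at 4 hr (0.95 ± 0.11). Slc1a4 (ASCT1), low in every library (at most 1.48 TPM), rose by 0.80 ± 0.15 and 0.72 ± 0.15 at 1 and 4 hr. At 4 hr it averaged 0.94 TPM in Arid1a-/- cells, against 0.19 TPM in Arid1a f/f cells. Slc38a2 was higher at 1 hr (0.54 ± 0.12) and not called at 4 hr (-0.16 ± 0.12), and the difference between the times was -0.70 ± 0.16. Slc38a1 rose at 4 hr to 22.6 and 19.9 TPM, against 8.03 and 7.93 TPM (1.31 ± 0.15), and Slc43a3, a nucleobase transporter that shares the family name, rose to 15.8 and 15.8 TPM, against 5.35 and 6.16 TPM (1.32 ± 0.13). Slc43a2 fell to 51.9 and 77.0 TPM at 1 hr, against 119 and 126 TPM (-0.95 ± 0.15), and Slc36a1 fell by 0.68 ± 0.12 at 1 hr and rose by 0.44 ± 0.12 at 4 hr. Slc38a6 fell by 0.98 ± 0.10 at 1 hr. The effect of the knockout differed between the times for 9 of 22 carriers, 8 more positive and 1 more negative at 4 hr, with 16.2% of all genes called (8.08% higher and 8.09% lower). Without replicate 2 of the 1 hr Arid1a f/f group 5 carriers were called for that difference, and 10 for the knockout effect at 1 hr.

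Loss of Pbrm1 moved no carrier past the threshold at 4 hr of lipid A. By limma 0 of 20 passed, with 0.00905% of all genes called (0% higher and 0.00905% lower), while 3 had an unadjusted p under 0.05 and limma-voom and the authors' deposited table called 0. Slc7a2 was at 66.5 and 58.6 TPM in Pbrm1-/- cells, against 69.6 and 18.2 TPM in Pbrm1 f/f cells (0.78 ± 0.65, 95% interval -0.95 to 2.52). Slc7a11 was at 3.25 and 2.51 TPM, against 3.97 and 2.503 TPM (-0.11 ± 0.21), Slc7a7 at 68.8 and 58.9 TPM, against 59.6 and 85.5 TPM (-0.16 ± 0.19), and Slc3a2 at 140.1 and 144 TPM, against 167 and 197 TPM (-0.35 ± 0.15). The changes were -0.13 ± 0.21 for Slc7a1, -0.08 ± 0.21 for Slc7a5, -0.19 ± 0.17 for Slc7a6 and -0.14 ± 0.15 for Slc7a8. The 2 control libraries stand apart over 413 genes. Granulocyte markers summed to 314 to 342 TPM in Pbrm1-/- cells, against 435 to 524 TPM in Pbrm1 f/f cells. Without control replicate 1, which leaves a single control library, the Slc7a2 change was 1.72, against 0.78 with both.

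Genes of connected pathways give the setting of these values. Among 29 targets of ATF4 and the amino acid response (Asns, Trib3, Chac1 and others), 19 of 25 tested were higher and 1 lower in Arid1a-/- cells at 1 hr (median 0.74 on the log2 scale), and 12 were higher and 2 lower at 4 hr (median 0.43). Over all genes 18.4% were higher and 16.8% lower at 1 hr (median 0.03), and 14.1% and 10.8% at 4 hr (median 0.05). Asns, asparagine synthetase, averaged 63.6 TPM, against 17.97 TPM in Arid1a f/f cells at 1 hr (1.77 ± 0.14), and Chac1, which breaks down glutathione, rose by 2.46 ± 0.33. For the polyamine and arginine enzymes, 7 of 17 were higher and 4 lower at 1 hr, among them spermidine synthase Srm (2.67 ± 0.18).

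Among 22 glutathione and NRF2 genes, 10 of 19 were higher and 1 lower with ACBI1 at 4 hr (median 0.92), 9 were higher and 3 lower with BRM014 (median 0.76), and 4 were higher and 4 lower with BRDK98 (median 0.17). Over all genes the shares were 22.3% higher and 13.5% lower with ACBI1 (median 0.25), 29.3% and 16.4% with BRM014 (median 0.43) and 24.7% and 12.4% with BRDK98 (median 0.46). With BRM014, Srxn1, which repairs oxidised peroxiredoxins, averaged 425 TPM, against 9.58 TPM in the control (5.33 ± 0.14). With ACBI1 it averaged 173 TPM, against 9.58 TPM in the control (4.04 ± 0.14). Heme oxygenase Hmox1 rose with ACBI1 (3.39 ± 0.09) and BRM014 (2.73 ± 0.09). At 60 min the list had 3 higher and 10 lower of 20 with ACBI1, 6 and 3 with BRM014, and 6 and 0 with BRDK98. Over all genes 11.6% were higher and 14.5% lower with ACBI1, 16.9% and 13.5% with BRM014, and 6.04% and 5.56% with BRDK98.

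Of 29 genes of amino acid sensing by mTORC1, 1 of 25 tested were higher and 17 lower at 4 hr of lipid A in experiment 1 (median -1.32, against -0.84 over all genes), and 0 of 28 were higher and 18 lower in experiment 2 (median -1.07, against -0.63). Of all genes 63.3% and 56.9% were called in these comparisons, 20.1% and 17.9% higher and 43.2% and 39% lower. The share of sensing genes called in either direction lies near that of all genes. By direction it does not, with 1 and 0 sensing genes higher and the other calls lower. Sesn1, of the leucine-sensing sestrin family, was at 1.38 TPM, against 239 TPM at 0 hr (-6.66 ± 0.18), and Flcn, which controls the lysosomal Rag proteins, fell by 4.83 ± 0.14. With ACBI1, BRM014 and BRDK98 at 4 hr, 12, 10 and 10 of the 25 tested sensing genes were higher and 1, 2 and 2 lower. Over all genes 22.3%, 29.3% and 24.7% were higher and 13.5%, 16.4% and 12.4% lower. All of these are set against the same lone control library. Of amino acid and peptide transporters outside the families, 4 of 19 were higher and 11 lower at 4 hr of experiment 1, with the lysosomal peptide carrier Slc15a3 the highest riser (2.98 ± 0.10). Il4i1, a secreted amino acid oxidase of the tryptophan and branched chain list, rose by 3.35 ± 0.16 with lipid A at 4 hr, and changed by -5.00 ± 0.16 with BRM014, -5.02 ± 0.16 with BRDK98 and -1.98 ± 0.14 in Arid1a-/- cells.

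The authors' deposited table gave adjusted p-values from their own tests of the same comparisons with control. For 156 carrier calls against control or unstimulated cells made here, the authors' deposited table had the same direction in 156 and an adjusted p under 0.05 in 142. Both come from the same samples, so a shared direction is not independent evidence. A further 17 values passed in the authors' deposited table only, among them Slc3a2 and Slc7a7 at 4 hr of lipid A in experiment 1, whose direction changed with the scaling here.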

How the data were processed

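RNA of mouse BMDMs was sequenced with a stranded poly(A) kit as 50 bp single-end reads, per the labels' protocols. The submitters' processing notes name STAR 2.5.3a, HOMER, DESeq2 and the builds mm10 and GRCm38. Per the file headers, the deposited tables hold TPM made by the authors with HOMER over exons of both strands, with 1 row per gene. The authors' deposited tables of comparisons give log2 fold changes and adjusted p-values, which were used only where named. These p-values and log2 values are not mixed with those computed here. Column names tied 45 libraries to samples. The first copy of the duplicated 4 hr control column was used. Its second copy, the only TPM column left out, and 46 per-sample columns of the comparison tables were not used.

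The design assumed that TPM might come with counts. None was deposited, so limma 3.58.1 in R 4.3.3 was run on log2(TPM + 1), with trend and robust moderation and all groups of an experiment in 1 model. Genes needed 1 TPM in at least 2 libraries. P-values were adjusted by Benjamini and Hochberg over all tested genes of a comparison, at 0.05, and a call needed the same result on TPM rescaled by median ratios. The same model was run on simulated data with independent normal noise and changes added to better expressed genes. It recovered most of the larger added changes in direction. Those data held no outlying libraries, so the run cannot speak for calls that rest on them or for small changes. Nothing in the labels says that the 2 samples of a group are separate animals or cultures, so p-values measure the spread between these samples, which may be technical. Low TPM values fell on whole reads, from which depth was recovered, and read floors cover counting error only. Stimulated cells were compared with unstimulated cells, perturbed cells with controls at the same time, compounds with each other, and effects between times. The comparisons of 4 with 1 hr and of compounds at 60 min were added after the data were seen.

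Slc7a1, Slc7a2, Slc7a11, Slc3a2 and its light chains were to be given in each comparison reported in full, and with them up to 8 carriers with the largest called change at 5 TPM or more. Comparisons with control or unstimulated cells follow that rule. For 20 min, between compounds and between times, ranges or a selection of these carriers are given. For genes of other lists the limit was 3 per list and comparison. The carriers and the gene lists were chosen with earlier results of these data known. Promoter sequences come from a RefSeq table, and positions from the annotation of mm10. Figures were drawn with matplotlib 3.10.9.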

Additional observations from a re-analysis of the deposited data

Results flagged for a closer look

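The effect of losing Arid1a differed between 4 hr and 1 hr of LPS for 9 of 22 carriers by a test of the difference itself. Over all genes 16.2% were called. The difference is given as the 4 hr minus the 1 hr effect on the log2 scale. It was 1.73 for Slc7a11, 1.17 for Slc43a2, 1.12 for Slc36a1, 0.96 for Slc38a1, 0.89 for Slc43a3, 0.82 for Slc7a2, 0.82 for Slc38a9, 0.73 for Slc38a6 and -0.70 for Slc38a2. Slc7a11 and Slc36a1 were lower in Arid1a-/- cells at 1 hr and higher at 4 hr, although the 1 hr call of Slc7a11 was lost on leaving out most single libraries in turn.

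The effect of ACBI1 differed between 60 and 20 min by the same kind of test for Slc7a11 (-0.99), Slc36a4 (-0.98), Slc43a2 (-0.79), Slc38a6 (-0.79), Slc7a8 (0.54) and Slc38a9 (0.45). The effect of BRM014 differed for Slc7a5 (2.58), Slc7a11 (-1.83) and Slc1a5 (1.22), and that of BRDK98 for Slc38a2 (1.92) and Slc7a1 (0.75). Slc38a2 also turned between 1 and 4 hr of stimulus alone, with a 4 hr minus 1 hr difference of -3.34 with lipid A in experiment 1 and -2.99 with LPS in experiment 2.

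Some carriers were called one way with a compound at 60 min and the other way at 4 hr. They were picked for opposite calls and for libraries that did not overlap in either comparison. Against a single control library at 4 hr, lack of overlap says little. The share of all genes that turned in this way was not counted. The 4 hr control is a single library shared by all of these comparisons, so its value bears on each. With ACBI1 the changes at 60 min and 4 hr were -0.92 and 1.73 for Slc7a11, -0.53 and 2.05 for Slc38a2, -0.84 and 1.04 for Slc43a2, and -0.61 and 1.08 for Slc38a1. With BRM014 they were -1.85 and 2.55 for Slc7a11, -0.82 and 1.96 for Slc38a1, and -0.32 and 0.75 for Slc7a6. The 4 hr call of Slc7a6 was lost without replicate 1 of BRM014. Medians over all genes at 60 min and 4 hr were -0.14 and 0.25 with ACBI1 and 0.04 and 0.43 with BRM014. These times belong to separate experiments, so the difference was not tested, and experiment and time cannot be told apart.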

How the results depend on the processing

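Counts of carriers called moved most under a minimum log2 change of 1. They were then 3 at 1 hr in experiments 1 and 2 and 2 at 60 min. At 4 hr they were 4 with ACBI1, 7 with BRM014 and 4 with BRDK98, and 2, 6 and 5 for BRM014 minus ACBI1, BRDK98 minus ACBI1 and BRDK98 minus BRM014. They were 3 and 6 for loss of Arid1a at 1 and 4 hr and 3 for the difference between those times. At 60 min they were 1, 3 and 1 with ACBI1, BRM014 and BRDK98, 2, 2 and 4 for the same pairs, and 0 and 1 for the 60 minus 20 min effects of ACBI1 and BRDK98. The BRDK98 difference between 20 and 60 min gave 1 carrier with a pseudocount of 0.1 and 1 with no filter on low TPM. On deposited TPM alone 12 of 19 carriers were called at 60 min of lipid A, with 863 of all 11549 genes higher and 6309 lower. With ACBI1 at 60 min 14 were called, with 1336 of all genes higher and 3203 lower. Limma-voom on recovered reads called 1 carrier at 20 min. For the other settings, the replicate block below among them, the share of all genes called was not counted. Those carrier counts therefore have no background beside them.

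Leaving out libraries in turn gave 7 to 13 carriers with BRDK98 at 4 hr, 10 to 15 for loss of Arid1a at 1 hr, 5 to 11 for the difference between its times, 0 to 4 for loss of Pbrm1 and 0 to 2 for 20 min of lipid A. At 60 min it gave 5 to 12 with ACBI1, 4 to 10 with BRM014 and 1 to 5 with BRDK98, 6 to 11 for BRM014 minus ACBI1 and 7 to 15 for BRDK98 minus ACBI1, and 3 to 8, 3 to 9 and 1 to 3 for the 60 minus 20 min effects of ACBI1, BRM014 and BRDK98. No comparison with the 4 hr control of experiment 1 can be made without its single library. In fits without a library, here and above, the share of all genes called was not counted. Those counts show how carrier calls moved and cannot be set against all genes.

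The following changes, none of them called, turned sign. A call needs the same sign on deposited and scaled TPM, so scaling cannot turn one. On scaled TPM Slc7a7 was 0.29 at 1 hr and 0.70 at 4 hr of experiment 1, Slc3a2 was 0.63 at 4 hr of experiment 1 and 0.38 at 4 hr of experiment 3, Slc7a8 was -0.23 with ACBI1 at 4 hr and Slc3a2 was -0.29 with BRDK98 at 4 hr. By limma-voom those values were 0.37, 0.96, 0.86, 0.56, -0.30 and -0.37, and Slc7a6 was 0.41 at 1 hr of experiment 1. The cause was not tested. Differences between replicates correlated weakly across groups (r between -0.239 and 0.236, with a median of 0.146 in experiment 3). The labels do not say whether the numbers pair samples, and these values cannot decide it. With a replicate block the counts were 14 for loss of Arid1a at 1 hr, 12 for BRM014 minus ACBI1 at 4 hr and 5 for the ACBI1 difference between times, and otherwise equal, with 351 of 353 single changes on the same side of the threshold and 2 weaker. Over all libraries left out in turn, 4374 of 4592 single changes stayed on the same side, 192 lost their call and 26 gained one. Count models were planned for counts and were not run. With 2 samples a group, a change that was not called is not shown to be absent.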
